A study of Mus musculus with 8 samples.

Results

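Spleen 7 days after 4 Gy of irradiation was compared with unirradiated spleen at day 0 in wild-type C57BL/6 mice, using 4 of the 8 RNA-seq libraries of the study, 2 on each side. The libraries were chosen by the group and day in their titles. All 8 libraries came from C57BL/6 mice whose age is labelled as 6 weeks, and the other 4 libraries came from mice with the R527C substitution in Lmna, 2 unirradiated at day 0 and 2 at day 7 after 4 Gy. Unirradiated samples at day 7 were not analysed here, so irradiation and day change together. Of 17327 genes with enough counts to be tested, 16707 lie on autosomes, and only these are described. No transgene or Cre is named for the wild-type mice, and it is not labelled whether replicates are different animals. The p-values therefore describe only how far these samples scatter, part of which may be technical.

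Ionising radiation breaks DNA and activates the p53 pathway, which halts the cell cycle or kills the cell, and resting lymphocytes are among the most sensitive cells. The mouse spleen holds B cell follicles and T cell zones in its white pulp and, in its red pulp, macrophages that recycle iron together with precursors of red cells, granulocytes and megakaryocytes. After a dose that leaves stem and progenitor cells alive, the mouse spleen is known as a site of renewed blood cell formation, red cell precursors in particular.

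The 4 wild-type libraries held 19455470 and 14738248 counts at day 0 and 13387859 and 12100784 at day 7. A count of 0 in 1 library allows up to 3 counts, which is 0.132 to 0.27 CPM (counts scaled by TMM to a common library size) and covers counting error only. On log2(CPM + 1), the replicates correlated across genes with r = 0.988 at day 0 and r = 0.959 at day 7, and 1.24% and 15.6% of genes differed over 2-fold between them. Genes are not independent replicates. The irradiated mutant pair was the least alike of the 4 pairs, with 32.6% of genes over 2-fold apart. All 4 day 7 libraries of the study had 1029 to 1776 CPM of Xist and no count of 4 Y-linked genes, while all 4 day 0 libraries had at most 0.262 CPM of Xist and 264 to 299 CPM of the Y-linked genes. This difference, irradiation and day cannot be told apart, and no gene of the X or Y chromosome is described. The mitochondrial genome gave 2.34% and 2.63% of counts at day 0 and 3.64% and 4.44% at day 7.

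A quasi-likelihood fit across all 8 libraries called 5 autosomal genes at an adjusted p under 0.05, 0.0299% of those tested, with 1 higher (0.00599%) and 4 lower (0.0239%). In that fit 2890 autosomal genes had an unadjusted p under 0.05. All 5 genes also passed, in the same direction, in the mutants, where 98 genes did (0.587%). The higher gene was Gm37529 on chromosome 1, a predicted gene of unknown function, with 0.352 and 0.696 CPM at day 0 and 19.1 and 20.5 at day 7. Lower were Rab27b, which moves secretory granules of platelets and other cells, Ms4a3, a membrane protein of granulocyte and monocyte precursors, and the immunoglobulin kappa segments Igkj5 and Igkv8-19. Rab27b had 13.2 and 13.5 CPM at day 0 against 0.811 and 0.706 at day 7, a log2 fold change of -4.13 ± 0.44 (SE, adjusted p = 0.0327). Ms4a3 had 10.2 and 9.61 CPM against 0.0901 and 0. Leaving out any 1 of the 4 wild-type libraries left none of the 5 calls. For each of the 5 genes the day 7 libraries lay apart from the day 0 libraries, as they did for 57.5% of all autosomal genes tested.

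That fit uses 1 spread for all groups, the divergent irradiated mutants included. The same test on the 4 wild-type libraries alone, called the wild-type fit here, gave 556 autosomal genes higher at day 7 (3.62% of 15343 tested) and 513 lower (3.34%), 6.97% in all. Every one of these calls was over 2-fold, and 1063 of the 1069 had the same sign in the mutants. The share of all genes with the same sign was not computed. A fit to the 6 libraries other than the irradiated mutants gave 1230 higher and 1286 lower, among them 1067 of the 1069. It holds the same 4 wild-type libraries, so the shared calls are no independent support. The wild-type fit has 2 residual degrees of freedom, and leaving out either day 0 library reduced it to 1 gene higher and 3 lower. Without the first day 7 library it gave 2286 higher and 2190 lower, and without the second 3269 and 3480. With library totals in place of TMM the median of all genes in the larger fit moved from 0.0842 to -0.258 on the log2 scale, and the wild-type fit gave 308 higher and 768 lower. Below, rose and fell, single-gene log2 fold changes with their SE and adjusted p come from the wild-type fit unless stated. Counts of genes that rose or fell are to be read against the 3.62% and 3.34% above. List medians and counts above or below 0 come from the fit to all 8 libraries. There the median over all genes was 0.0842, 53.9% of them were above 0, and Rab27b was the 1 gene of the 38 lists that passed.

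**Figure D1:**
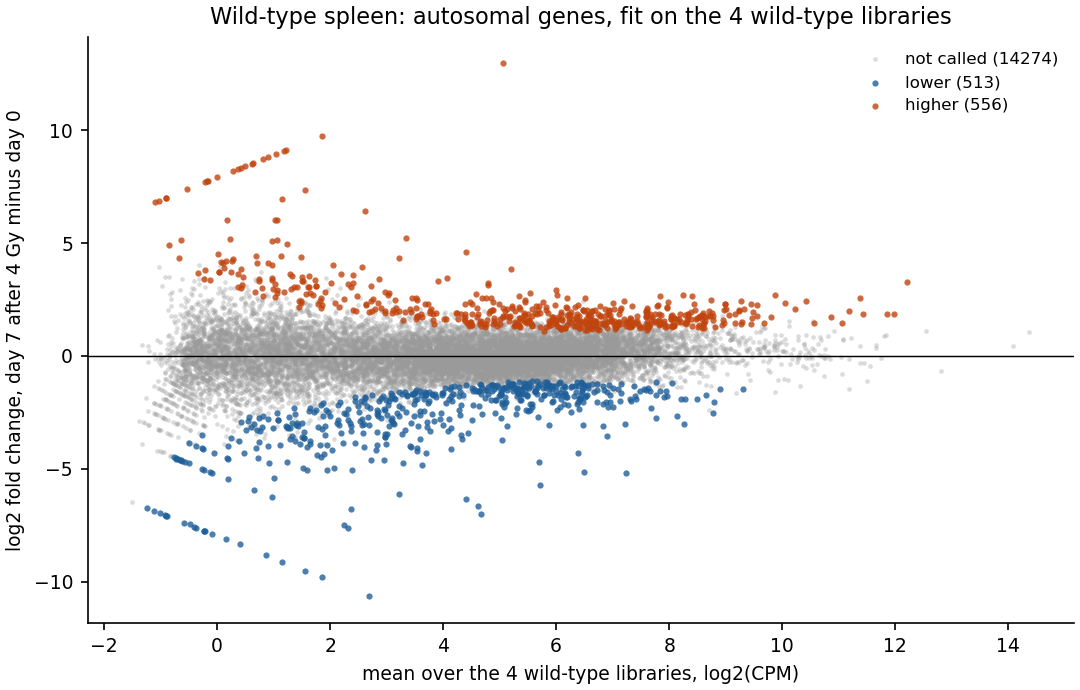
Each point is an autosomal gene in the wild-type fit, placed by its mean over the 4 wild-type libraries (x axis, log2 CPM) and its log2 fold change at day 7 against day 0 (y axis). The 556 genes called higher are orange, the 513 called lower are blue, and the outermost straight diagonal rows at the left are genes with a count of 0 in 1 of the groups.

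Red cell precursor genes were higher in irradiated spleen. Of 36 tested members of the erythroid list, 22 rose and 1 fell, and the list median was 1.68. In 33 of the 36 both day 7 libraries lay above both day 0 libraries, against 29.5% of all autosomal genes tested. Slc25a37 (mitoferrin 1), the carrier that brings iron into mitochondria for haem synthesis, had 788 and 689 CPM at day 0 and 4900.2 and 4316 at day 7. Its log2 fold change of 2.59 ± 0.35 (adjusted p = 0.012) was the highest of the list's called genes in both fits.

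Membrane and skeleton proteins of the red cell made up the largest erythroid subgroup, and 11 of its 15 tested genes rose, with a median of 1.70. Rhag, the glycoprotein that anchors the Rh complex, went from 152 and 99.4 CPM to 960.0 and 493. Slc4a1, the anion exchanger band 3, had 1435 and 889 CPM at day 0 and 5097 and 3652 at day 7. In both genes the first day 7 library was the higher of the pair, and the lower one was still above both day 0 libraries. The log2 fold changes were 2.48 ± 0.42 for Rhag and 1.86 ± 0.39 for Slc4a1 (adjusted p = 0.0178 and 0.0312).

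Among iron and haem genes 5 of 9 rose, with a median of 1.74. Tfrc, the transferrin receptor, had 1039.5 and 745 CPM at day 0 and 4823 and 2664 at day 7, a log2 fold change of 2.01 ± 0.41 (adjusted p = 0.0283). Cpox, an enzyme late in haem synthesis, had 237 and 136 CPM against 1539 and 557, so that its 2 day 7 libraries differed more from each other than those of Slc25a37 did. Fech, which inserts the iron, rose by 1.68 ± 0.32. Of the 6 transcription factors and receptor genes 3 rose, among them Tal1, a master regulator of blood formation, at 213 and 141 CPM against 805 and 429. Klf1, the main erythroid activator (158 and 111 CPM against 376 and 189), and Epor, the erythropoietin receptor (94.1 and 73.6 against 215 and 119.7), did not pass (adjusted p = 0.143 and 0.137).

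The 2 carbonic anhydrases of the list went opposite ways. Car2 rose, with 1933 and 1427 CPM at day 0 and 7559 and 5220.0 at day 7, a log2 fold change of 1.87 ± 0.38. Car1 fell, with 313 and 179.7 CPM against 88.7 and 49.5, a log2 fold change of -1.89 ± 0.41 (adjusted p = 0.0322). In the mutants the Car1 log2 fold change of the fit to all 8 libraries was 0.06, against -1.83 in wild type, a difference that did not pass (adjusted p = 1). That mutant value averages unlike libraries, since Car1 had 272 and 231 CPM in the mutants at day 0 and 510.4 and 12.7 at day 7. Xpo7, a nuclear exporter that is abundant in late red cell precursors, had 254 and 223 CPM against 832 and 1242 and rose by 2.07 ± 0.35.

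Adult globin genes did not pass. Hba-a1 had 9669 and 16947 CPM at day 0 and 23421 and 34332 at day 7, and Hbb-bt had 1689 and 3185 against 5168 and 4571. The unirradiated libraries themselves differed nearly as much as the groups, and neither gene passed (adjusted p = 0.159 and 0.165). Reads of such near-identical copies may be split between them. The 1 of 6 tested globin genes that rose was Hbb-y, the embryonic epsilon-y globin, at 0.176 and 0.253 CPM at day 0 and 4.33 and 3.09 at day 7 (adjusted p = 0.019), a level far below the adult genes. In a bulk sample, more cells of a type and more RNA per cell cannot be told apart, and the same holds for fewer cells and less RNA.

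The promoters of 3 erythroid genes that rose are shown because each holds GATAA, the core that GATA factors such as GATA1 bind. They are RefSeq sequences of GRCm38.p6, 5′ to 3′ on the gene's strand, ending before the RefSeq start or the first base that GENCODE M21 counts as exon, whichever comes first, with GATAA or its reverse complement TTATC in capitals. Rhag lies at chr17:40810999-40811125 (plus strand), Kel, a blood group endopeptidase of the red cell membrane, at chr6:41704340-41704475 (minus strand), and Cpox at chr16:58670058-58670207 (plus strand).
Rhag: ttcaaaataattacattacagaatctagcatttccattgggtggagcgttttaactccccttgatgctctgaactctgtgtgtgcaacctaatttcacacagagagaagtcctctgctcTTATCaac
Kel: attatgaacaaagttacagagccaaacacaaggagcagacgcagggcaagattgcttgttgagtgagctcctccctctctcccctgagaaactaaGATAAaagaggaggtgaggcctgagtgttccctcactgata
Cpox: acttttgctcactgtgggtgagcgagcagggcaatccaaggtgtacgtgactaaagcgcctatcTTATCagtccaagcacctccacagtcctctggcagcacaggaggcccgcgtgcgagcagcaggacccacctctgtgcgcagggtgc
GATAA was searched on both strands in the 250 bases before each start. It was found in 12 of 29 promoters of 24 erythroid genes (41.4%). Among the 10819 autosomal genes tested that have a sequence here, it was found in 15.4% of 13781 promoters. Under 80% of the erythroid genes have a promoter sequence here, so these shares are not a comparison, and a match is a string of letters and not a bound site. Kel rose from 208 and 154 CPM to 684 and 491 (log2 fold change 1.64 ± 0.34).

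**Figure D2:**
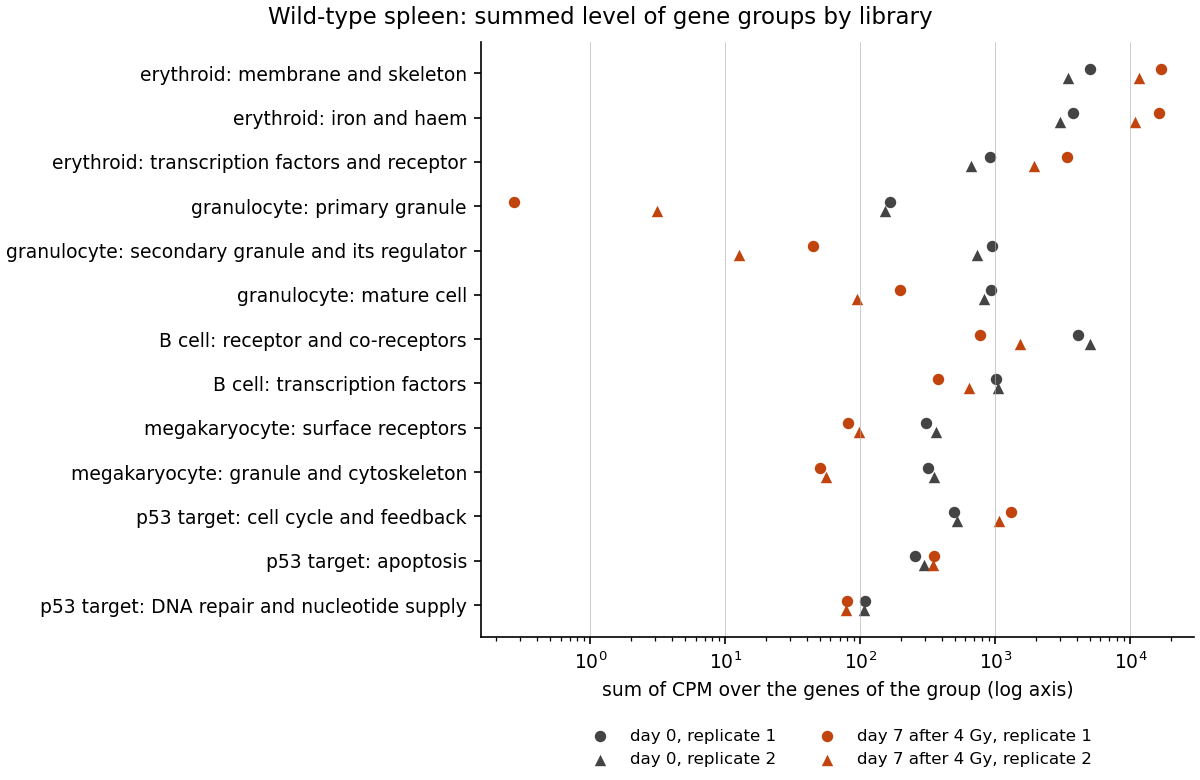
Summed CPM (x axis, log scale) of the genes in each role group (y axis) in the 2 day 0 libraries (grey) and the 2 day 7 libraries (orange), circles for replicate 1 and triangles for replicate 2. All 3 erythroid groups are higher at day 7, and the granulocyte primary granule group falls from 167 and 151 CPM to 0.27 and 3.09 CPM.

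Genes of cell division were higher at day 7, more so in the first library. All 28 mitosis genes had a log2 fold change above 0, against 53.9% of all autosomal genes tested, with a median of 1.30. Of the 28 genes 6 rose, against 3.62% of all genes. Mki67, the proliferation marker Ki-67, had 1037 and 623 CPM at day 0 and 3709 and 2039 at day 7 (log2 fold change 1.73 ± 0.43, adjusted p = 0.0451). Ube2c, the ubiquitin-conjugating enzyme of the anaphase-promoting complex, had 194 and 189.9 against 981 and 645 (2.03 ± 0.34, adjusted p = 0.0173). Birc5 (survivin), Ccna2 (cyclin A2), Nusap1 and Cenpf also rose. Top2a, the topoisomerase that untangles chromosomes, did not pass, at 453 and 293 CPM against 1056 and 468. Without the first day 7 library the mitosis median was 0.562, and without the second it was 1.72.

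DNA replication genes showed the same split between the day 7 libraries. Of 31 genes 30 were above 0, against 53.9% of all autosomal genes tested, and the median was 0.93. Among them 3 rose, against 3.62% of all genes. These were Rrm2 (a subunit of ribonucleotide reductase), Ccne2 (cyclin E2) and E2f2, a transcription factor of S phase. Rrm2 had 259.6 and 202 CPM at day 0 and 1313 and 639 at day 7. Mcm2, a subunit of the replicative helicase, and Pcna, the polymerase clamp, did not pass. Pcna had 473 and 399 CPM against 1658 and 651. Without the first day 7 library the median of the replication genes was 0.128. Both lists kept a median above 0 in all 20 other settings tried.

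The promoters of Mki67 at chr7:135716380-135716579 (minus strand) and Ube2c at chr2:164769729-164769897 (plus strand) are shown for their repeated CCAAT boxes, a motif bound by NF-Y and common upstream of mitosis genes. The source, strand and end are as for the erythroid promoters, and CCAAT and its reverse complement ATTGG are in capitals, 3 in Mki67 and 5 in Ube2c, of which the first 2 overlap.
Mki67: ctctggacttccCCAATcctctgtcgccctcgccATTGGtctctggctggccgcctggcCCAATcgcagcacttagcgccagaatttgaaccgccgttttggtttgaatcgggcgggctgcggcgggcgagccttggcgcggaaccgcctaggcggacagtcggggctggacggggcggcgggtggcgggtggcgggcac
Ube2c: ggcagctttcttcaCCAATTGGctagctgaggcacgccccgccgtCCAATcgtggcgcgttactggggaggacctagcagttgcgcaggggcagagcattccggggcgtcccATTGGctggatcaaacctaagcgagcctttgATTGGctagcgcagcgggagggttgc
CCAAT was found in 20 of 24 promoters of 22 mitosis genes (83.3%) and in 19 of 28 of DNA replication genes (67.9%). It was found in 34.7% of the promoters of the 10819 autosomal genes tested that have a sequence here. Under 80% of the mitosis genes, and under 80% of all autosomal genes tested, have a promoter sequence here. None of these shares, nor those of TTTGAA below, is therefore a comparison. TTTGAA, the core of the cell cycle homology region, was found in 10 of the 24 mitosis promoters (41.7%), in 3 of the 28 replication promoters (10.7%) and in 11.1% of all.

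Histone genes of the replication-dependent clusters had a median of 1.84, and 4 of 12 members that the wild-type fit tested rose. Hist1h2ak had 0.528 and 0.379 CPM at day 0 and 5.23 and 10.4 at day 7, and Hist1h1b, a linker histone, had 0.132 and 0.19 against 1.71 and 2.74. Their messages normally lack a poly(A) tail, and these levels in an mRNA library are low. In both the second day 7 library was the higher of the pair, unlike in the mitosis genes named above. Hist1h4i had 21.8 and 18.2 CPM against 105 and 51.7 and rose by 1.92 ± 0.38.

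Granulocyte genes had the lowest median of the cell type lists, -4.26. Of 19 genes 14 fell and none rose, and in 18 both day 7 libraries lay below both day 0 libraries, against 28% of all autosomal genes tested. The 4 enzymes of primary granules, made in promyelocytes, all fell. Mpo (myeloperoxidase) had 53.6 and 47.4 CPM at day 0 and 0.0901 and 0.706 at day 7, a log2 fold change of -7.00 ± 0.60 (adjusted p = 0.00216). Prtn3 (proteinase 3) had 49.6 and 47.4 against 0.18 and 0.795 (adjusted p = 0.00174). Elane (neutrophil elastase) had 44.2 and 39 against 0 and 1.06, and Ctsg (cathepsin G) 19.5 and 17.3 against 0 and 0.53. Fcnb (ficolin B), made by the same precursors, had 14.2 and 11.5 CPM at day 0 and no count at day 7, so it was at least 47.5-fold lower against a floor of 3 counts per library.

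Secondary granule genes, which are switched on at the myelocyte stage, were grouped with their regulator Cebpe. All 6 genes of this group fell, with a median of -4.86. Ngp (neutrophilic granule protein) had 334 and 249.6 CPM at day 0 and 13.2 and 3.71 at day 7, and Camp (cathelicidin) had 183 and 165 against 8.02 and 2.3. Chil3, a chitinase-like lectin, had 129 and 77.4 against 3.15 and 0.883, Lcn2 (lipocalin 2) 109 and 89.7 against 6.22 and 1.77, and Ltf (lactoferrin) 175 and 142 against 13.2 and 3.44. In the primary granule genes the second day 7 library was the higher of the pair, and in these secondary granule genes the first was. The log2 fold changes ran from -5.73 ± 0.58 for Chil3 to -4.31 ± 0.57 for Ltf among the 5 named.

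Of 8 genes of the mature neutrophil 3 fell, S100a8, S100a9 and the gelatinase Mmp9, with a median of -1.50. S100a9, a subunit of the calcium-binding protein calprotectin, had 578 and 513 CPM at day 0 and 96.2 and 44.5 at day 7 (log2 fold change -3.01 ± 0.42, adjusted p = 0.0124), and its partner S100a8 had 278 and 253 against 50 and 18. Whether the 3 granulocyte groups differ in their change was not tested. Other myeloid lists moved in part. Of 12 monocyte genes 2 fell (median -0.69), against 3.34% of all genes. They were Ly6c2, the marker of inflammatory monocytes, with 121 and 162 CPM against 38.4 and 44.5, and F13a1 (coagulation factor XIII A), with 24.8 and 17.4 against 1.8 and 3.27. Of 7 tested genes of eosinophils, basophils and mast cells 3 fell, Prss34, Mcpt8 and Il5ra (a chain of the interleukin 5 receptor), and none rose. Prss34 and Mcpt8, basophil proteases, had 4.4 and 2.91 CPM and 2.99 and 1.45 CPM at day 0 and no count at day 7, at least 13.5-fold and 8.22-fold lower. Prg2, the major basic protein of eosinophils, had 5.19 and 4.81 CPM against 2.61 and 11, with overlapping groups.

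Megakaryocyte and platelet genes fell in 13 of 15 cases, against 3.34% of all genes. Their median was -3.03, and their replicates were close. All 15 had both day 7 libraries below both day 0 libraries, against 28% of all autosomal genes tested. Ppbp, a platelet chemokine, had 201 and 207 CPM at day 0 and 24.9 and 25.1 at day 7, a log2 fold change of -3.08 ± 0.30 (adjusted p = 0.00411). Pf4 (platelet factor 4) had 79.6 and 116 against 23.2 and 27.6. Among surface receptors, Gp5, a part of the von Willebrand factor receptor, had 14.9 and 22.8 CPM against 0.361 and 1.06, the lowest log2 fold change of the list at -4.76 ± 0.58. Treml1, a receptor of platelet granules, had 16.2 and 20 against 1.89 and 1.94. Itga2b, the integrin chain CD41, fell by 1.91 ± 0.30 on the log2 scale, among the smallest falls of the called members. The list median stayed between -3.37 and -3.01 in all 20 other settings tried.

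**Figure D3:**
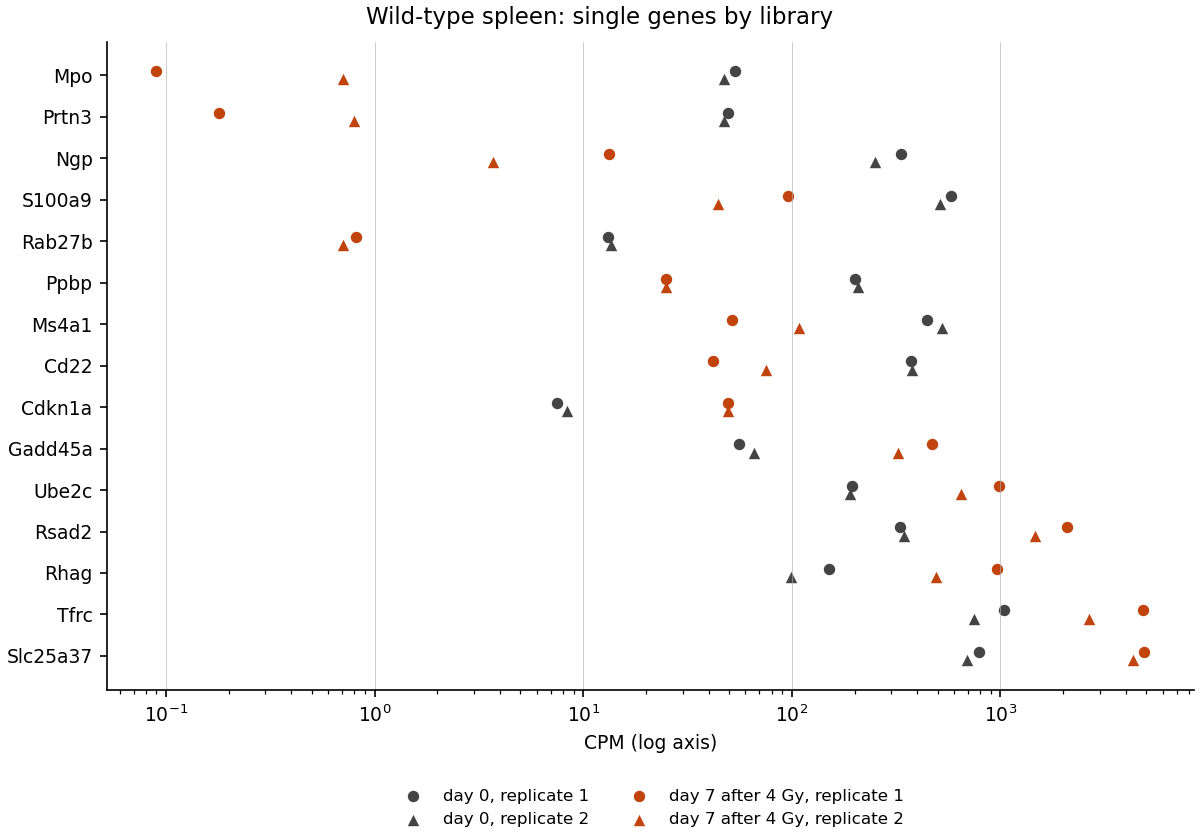
CPM (x axis, log scale) of 15 genes (y axis) in the 2 day 0 libraries (grey) and the 2 day 7 libraries (orange), circles for replicate 1 and triangles for replicate 2. In each gene the groups do not overlap, and the falls of Mpo and Prtn3, from 47.4 to 53.6 CPM to under 1 CPM, span the widest range.

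B cell genes fell together. Of 25 genes 19 fell, against 3.34% of all genes. None had a log2 fold change above 0, against 53.9% of all autosomal genes tested, and the median was -1.92. Among 13 genes of the receptor and its co-receptors 12 fell. Ms4a1 (CD20) had 447 and 527 CPM at day 0 and 51.5 and 108 at day 7, a log2 fold change of -2.66 ± 0.41 (adjusted p = 0.0142). Cd22, an inhibitory co-receptor, had 373 and 377 against 42 and 75.6, and Cd180, a relative of the Toll-like receptors, 94.1 and 81.8 against 11.7 and 16.2 (adjusted p = 0.0122 and 0.00889). Fcer2a (CD23), a marker of follicular B cells, fell most, from 217 and 222 CPM to 7.39 and 31.6. In these genes the second day 7 library was always the higher, and both stayed below the day 0 libraries. Cd79a, a signalling chain of the receptor, had 712 and 1032 CPM against 186 and 398 and narrowly missed the threshold (adjusted p = 0.0516).

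Of 5 transcription factors of B cells 1 fell, with a median of -0.45. Spib, which acts with PU.1 in mature B cells, fell, at 328 and 347 CPM against 39.1 and 104. Pax5, the B cell identity factor, had 285 and 316 against 102 and 160.5 (adjusted p = 0.0556). Ebf1, an earlier B lineage factor, had 45.7 and 49.8 CPM at day 0 and 35.7 and 54.6 at day 7, so the groups overlapped (log2 fold change -0.13 ± 0.31). Whether Ebf1 differs from the receptor genes was not tested.

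Variable segments of immunoglobulin genes were lower with them. Of 157 segments 81 fell and none rose, with a median of -2.82. The split by chain was 40 of 73 heavy chain and 41 of 81 kappa segments. Summed over segments, the level was 1950 and 1604 CPM at day 0 and 233 and 614 at day 7. Constant regions, which carry most of the immunoglobulin reads, summed to 9134 and 11385 CPM at day 0 and to 3567 and 11279 at day 7. The second day 7 library thus overlapped day 0. Of the 13 constant regions 1 fell, a count near the 3.34% called lower among all genes. Reads of such similar segments may be counted for either. Of 15 plasma cell genes 1 rose and none fell, a count near the 3.62% called higher among all genes. Variable segments of T cell receptors fell in 4 of 21 cases (median -1.98). Of their 7 constant regions 2 rose and none fell (median 1.49), Trdc of the delta chain, with 2.55 and 5.5 CPM against 12.9 and 19.3, and Tcrg-C1 of the gamma chain, with 3.74 and 4.62 against 24.2 and 18.5, both named after their values were seen.

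MHC class II genes, which B cells, dendritic cells and macrophages share, were below 0 in 10 of 10 cases (median -1.01). Of all autosomal genes tested 53.9% were above 0. Among the 10 genes 2 fell, against 3.34% of all genes. Ciita, the master activator of these genes, had 151 and 107 CPM against 16.9 and 31.3, and H2-Ob, of the peptide-loading modifier found in B cells, 355 and 411 against 75.7 and 155. Cd74, the invariant chain, had 3257 and 4604 against 1117 and 2625 and did not pass (adjusted p = 0.158).

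Few T cell genes passed the test. Of 25 genes 1 fell and none rose, a share of 4% lower against 3.34% of all genes. The list median was -0.47, with 20 genes below 0 and 5 above, where 53.9% of all autosomal genes tested were above. In 13 genes both day 7 libraries lay below both day 0 libraries, against 28% of all autosomal genes tested, and in 2 they lay above. Cd3e, a chain of the T cell receptor complex, had 45.3 and 48.4 CPM at day 0 and 41.7 and 76.6 at day 7, and Cd4 had 98.7 and 94.7 against 56 and 101. The groups overlapped in both genes. The 1 called gene was Cd6, a co-receptor, with 51.7 and 51.6 CPM against 17.1 and 25.3 (adjusted p = 0.0415). Of 16 NK and cytotoxic genes 1 fell, Tbx21 (T-bet), with 14.8 and 16.8 CPM against 3.34 and 6.27, also a share near that of all genes. Of 15 dendritic cell, 17 clearance macrophage and 14 iron recycling macrophage genes none passed in the wild-type fit. The 14 iron recycling genes summed to 3623 and 4140 CPM at day 0 and 7101 and 6287 at day 7, and all 14 had enough counts in spleen to be tested. The first 2 genes of the list moved less, Spic with 69.5 and 62.2 CPM against 73.2 and 85.1, and Slc40a1 with 217 and 170 against 264 and 272. Not every gene of the list is limited to red pulp macrophages, so the sum is not read as a change in them.

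**Figure D4:**
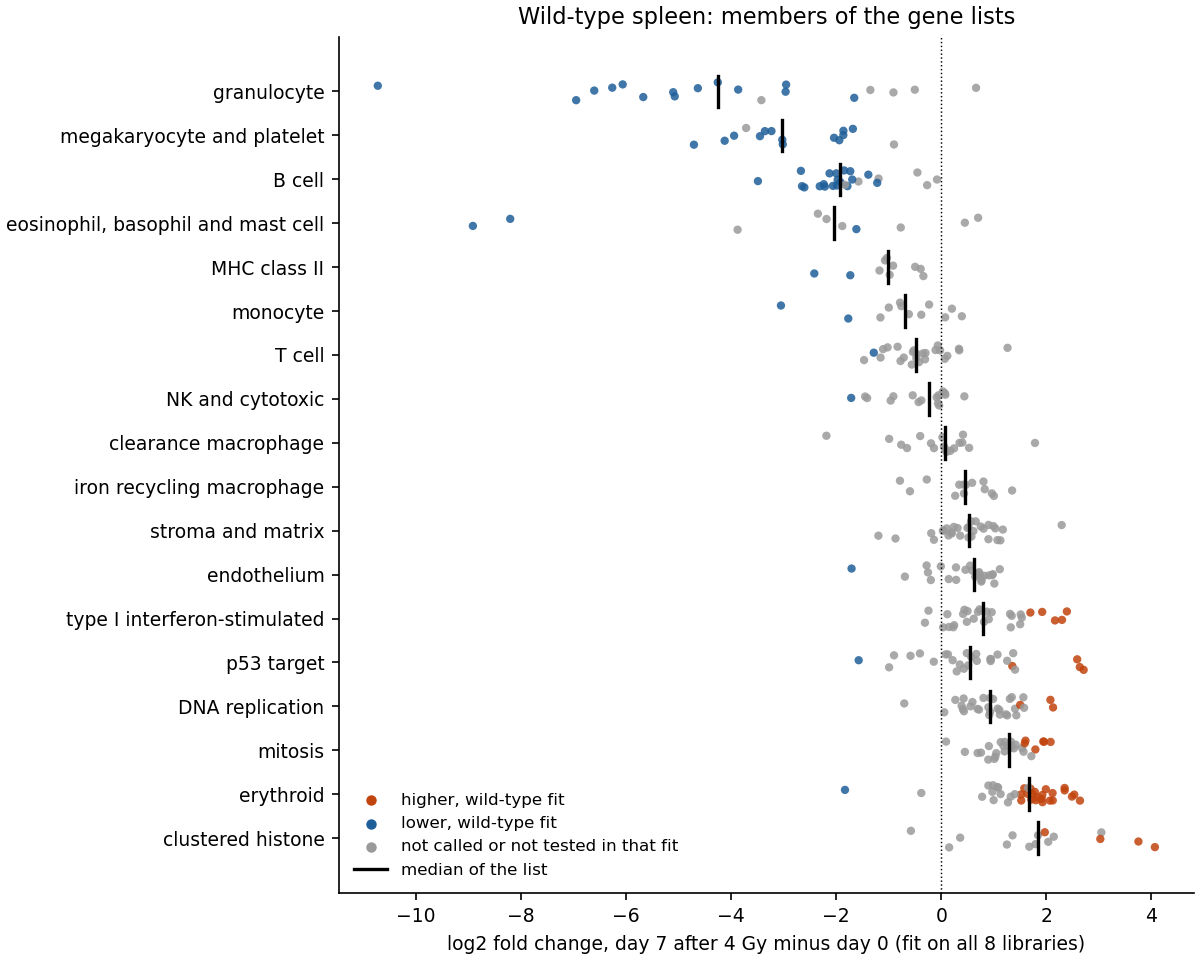
Each point is a member of 1 of 18 lists (y axis), placed by its log2 fold change in the fit to all 8 libraries (x axis), orange or blue where the wild-type fit called it higher or lower, with the list median as a black line. The granulocyte median of -4.26 and the megakaryocyte median of -3.03 lie farthest below 0, and the erythroid and histone medians of 1.68 and 1.84 farthest above.

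Among 27 p53 targets tested in the wild-type fit 4 rose and 1 fell, and the median over 28 was 0.54. Cdkn1a (p21), the inhibitor that stops the cell cycle, had 7.52 and 8.35 CPM at day 0 and 49.2 and 49.6 at day 7, with little spread in either pair (log2 fold change 2.59 ± 0.31, adjusted p = 0.00972). Gadd45a, a stress sensor, had 55.8 and 65.9 against 473 and 324, Gdf15, a secreted stress cytokine, 1.49 and 1.2 against 9.46 and 6.89, and Pmaip1 (NOXA), which promotes apoptosis, 20.9 and 25.6 against 58 and 60.7. Other well-known targets did not pass. Mdm2, the ligase that degrades p53, had 69 and 77.5 CPM against 109 and 100.1 (adjusted p = 0.33), and Bax 54.3 and 77.9 against 42.9 and 56.9, with overlapping groups. Ddb2, a damage sensor of nucleotide excision repair, fell, from 23.5 and 24.6 CPM to 9.19 and 6.98 (log2 fold change -1.63 ± 0.35). Of 36 genes of DNA damage signalling and repair none passed.

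Of 15 BCL2 family genes 2 rose, against 3.62% of all genes. One was Pmaip1, already counted among the p53 targets. The other was Bcl2l1 (BCL-XL), a survival factor that red cell precursors also depend on, at 110.2 and 132 CPM against 254 and 405. The senescence list, which bears on the question of the study, held 5 of 21 genes that rose, against 3.62% of all genes. Among them were Cdkn1a and Gdf15, both also p53 targets, Cdkn2c (p18), an inhibitor of the kinases of G1, and Mmp3 (stromelysin 1), a matrix protease. Mmp3 had 1.14 and 2.09 CPM at day 0 and 68 and 13.6 at day 7, with a wide gap between the day 7 libraries. Cdkn2a, the gene of p16 and p19 ARF, had 0.835 and 1.83 against 1.44 and 3, with overlapping groups at low levels. Lmnb1, which is on this list and on the next, had 147 and 136 CPM against 399 and 236 and did not pass. Its higher level is not read as a mark of senescence. Of 15 nuclear lamina genes 1 rose, Lbr, the lamin B receptor, at 194 and 144 CPM against 711 and 379.6 (adjusted p = 0.0407). A single call in a list of this size is near the 3.62% called higher among all genes, and nothing about the lamina is read from it. Lmna itself, for lamin A and C, had 108 and 81.3 against 213 and 113 and did not pass (adjusted p = 0.249), nor did Lmnb1, for lamin B1 (adjusted p = 0.0825).

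Type I interferon-stimulated genes rose in 5 of 30 cases, against 3.62% of all genes. Of the 30 genes 28 were above 0, against 53.9% of all autosomal genes tested, and the median was 0.79. Rsad2 (viperin) had 331 and 345 CPM at day 0 and 2082 and 1466 at day 7 (log2 fold change 2.34 ± 0.34, adjusted p = 0.0138), and its neighbour Cmpk2, a nucleotide kinase, 81.4 and 60.3 against 430.4 and 206. Isg15, a ubiquitin-like protein, had 221 and 289 CPM against 1575 and 935, and Oas3, which makes the activator of RNase L, 61.5 and 57.3 against 246 and 139. Irf7, the master regulator of the response, had 176 and 200.5 against 464 and 198 and did not pass. As in the mitosis genes, the first day 7 library was the higher, and without it the list median was 0.064. Of 15 genes induced by interferon-gamma 1 rose, the guanylate-binding protein Gbp7, a count near the share of all genes.

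Of 7 growth factor genes that the wild-type fit tested 1 rose and 1 fell, against 3.62% and 3.34% of all genes. Genes of supporting cells passed in few cases. Kitl (stem cell factor), made by stromal cells and needed by blood progenitors, had 30.6 and 32.1 CPM at day 0 and 77.5 and 94.1 at day 7 (log2 fold change 1.40 ± 0.29, adjusted p = 0.0288). Tgfb1, which restrains progenitors, fell, from 166 and 179 CPM to 61.7 and 85.8. None of 30 stroma and matrix genes, 9 lymphoid stroma genes, 11 stem and progenitor genes or 9 smooth muscle genes passed. In the 13 lists without a call (187 genes), 38 genes had an unadjusted p under 0.05 in edgeR's wild-type fit, and on the same libraries DESeq2 called 18 and limma-voom 1. Among all autosomal genes, of which the wild-type fit tested 15343, DESeq2 called 2123 and limma-voom 1264. The share of all genes with an unadjusted p under 0.05 in the wild-type fit was not computed, so nothing is read from the 38. The stroma and matrix median was 0.52 and became -0.35 without the second day 7 library. Of 24 endothelial genes 1 fell, Icam2, with 37.1 and 59.8 CPM against 11 and 18.6, a count near the 3.34% called lower among all genes.

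Among all called protein-coding genes with a mean of at least 5 CPM and groups that do not overlap, the 10 highest log2 fold changes were led by Alb, the liver's albumin. Alb had no count at day 0 and 62.9 and 70.6 CPM at day 7, at least 351.7-fold higher against a floor of 3 counts per library. Of 16 hepatocyte genes that the wild-type fit tested 11 rose, among them Apoa1 at 0 CPM in both day 0 libraries and 7.21 and 7.24 at day 7. All 18 genes of the list had counts in both day 7 libraries, and 9 had none in either day 0 library. Hp (haptoglobin), which granulocyte precursors also make, fell, from 40.1 and 39.5 CPM to 5.5 and 6.01. The list's sum was 44.7 and 49.3 CPM at day 0 and 118 and 125 at day 7, and the part of liver transcripts in other results was not tested. The other 9 were Mmp3, Klf5 (a transcription factor), Ankrd36, Pdk4 (a kinase that inhibits pyruvate dehydrogenase), Gmpr (GMP reductase), Nrip3, Fam124a, the heat shock gene Hspa1b and Plek2, a cytoskeletal protein of late red cell precursors. Plek2 had 17.1 and 11.4 CPM at day 0 and 171 and 55.7 at day 7, and Pdk4 3.08 and 2.15 against 17.2 and 37.4. The 10 lowest were 9 granulocyte genes named above and Gp5.

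Transcripts that bear on RNA composition moved with the groups, and their part in the results above was not tested. The ribosomal RNA gene CT010467.1 on chromosome 17, named after its values were seen, had 931 and 789 CPM at day 0 and 6300.0 and 10807 at day 7, and the small nuclear RNA Rn7sk 2.46 and 1.71 against 11.8 and 16.4. Of 16 immediate early and heat shock genes, which can respond to tissue handling, 3 rose, against 3.62% of all genes. They were Dusp1, Hspa1a and Hspa1b. None of 24 cytosolic ribosomal protein genes passed.

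Wild-type and mutant spleens were set side by side only to see where the wild type differs. A test of the difference between their irradiation effects in the fit to all 8 libraries called no autosomal gene (0%), with 268 at an unadjusted p under 0.05, and DESeq2 called 4 and limma-voom 0. List medians in wild type and mutant were 1.68 and 1.77 for erythroid genes, -4.26 and -5.41 for granulocyte genes, -3.03 and -2.61 for megakaryocyte genes, and -1.92 and -2.04 for B cell genes. For p53 targets they were 0.54 and 0.66, for type I interferon-stimulated genes 0.79 and 0.35, and for mitosis genes 1.30 and 0.81. Some other lists lay farther apart, with 1.84 and 3.78 for histone genes and 0.97 and 2.41 for globin genes. Stroma and matrix genes had 0.52 and 1.81, adipose genes 0.15 and 4.71, and hepatocyte genes 7.89 and 6.38. Dendritic cell genes differed in sign, with 0.59 and -0.13. Differences between list medians were not tested. The mutant erythroid median averages unlike libraries. Slc4a1 had 1409 and 1029 CPM in the mutants at day 0 and 8935 and 756 at day 7, and Rhag had 145 and 111 against 1430.5 and 121, so in both genes the first irradiated mutant library was far above day 0 and the second was not. A difference that does not pass does not show that the genotypes respond alike, since the spread of the irradiated mutants enters this test.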

How the data were processed

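RNA from flash-frozen spleens was extracted with Trizol and made into mRNA libraries with a VAHTS kit, per the labels' protocols. The authors deposited 1 table of raw read counts with a column for each sample. Tools named in the submitters' processing notes are featureCounts, Subread and Trim Galore, with the builds mm10 and hg38. On versions, strand setting and multi-mapped reads nothing is given in the sources used here, so overlapping and near-identical genes are uncertain.

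Of 52636 genes, 52489 received a GENCODE M21 (GRCm38) symbol and 48182 lie on autosomes. Counts were filtered by filterByExpr (min.count 10), scaled by TMM and tested with edgeR 4.0.16 (quasi-likelihood F test, R 4.3.3) on the 8 libraries together, 1 coefficient per group, Benjamini-Hochberg adjustment over all genes tested and a threshold of 0.05. The SE is the absolute log2 fold change over the square root of F. DESeq2 1.42.0, limma-voom (limma 3.58.1), the fit to 4 wild-type libraries, other scalings, filters and left-out libraries were alternatives. The procedure was tested on simulated data with the same spread for all genes and groups. The real pairs differed in spread, so that test does not cover the unequal spread seen here.

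The libraries, the 38 gene lists and their role groups were chosen with earlier results of these data known. Named by rule were the 10 highest and 10 lowest called protein-coding genes (groups not overlapping, mean of at least 5 CPM), the first 2 genes of each list and its 4 called genes with the smallest p. Applying this rule to the wild-type fit, and naming any other gene, was decided after its values were seen.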

Additional observations from a re-analysis of the deposited data

How the results depend on the processing

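Values are genes higher and then lower. The fit to all 8 libraries gave 1 and 4. It gave 0 and 2 with library totals, 1 and 1 with upper-quartile scaling, 757 and 772 without the low-count filter, 435 and 686 with DESeq2, 1 and 0 with limma-voom, and 1 and 2 without immunoglobulin, T cell receptor and globin genes. The 4 wild-type libraries gave 556 and 513, and the 6 libraries other than the irradiated mutants, chosen after seeing the data, gave 1230 and 1286. Leaving out each library in turn gave 0 to 1206 higher and 0 to 1266 lower. Without MUT_D7 replicate 1 the counts were 1133 and 1229, without MUT_D7 replicate 2 they were 1206 and 1266, and without any other library there was at most 1 in each direction. The cause was not tested.

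The fit to the 4 wild-type libraries (556 and 513), with alternatives chosen after seeing the data, gave 308 and 768 with library totals, 1195 and 1259 without the filter, and 1204 and 919 with DESeq2. Leaving out each library in turn gave 1 to 3269 higher and 3 to 3480 lower. Without either WT_D0 library it called 1 and 3, without WT_D7 replicate 1 it called 2286 and 2190, and without WT_D7 replicate 2 it called 3269 and 3480. DESeq2 on these libraries called 1051 of the 1069 genes and limma-voom 1042. DESeq2 on all 8 libraries called 646 of them.

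Replicate number as a block gave 1 and 10 with all 8 libraries and 1297 and 1284 with the 4 wild-type libraries. Deviations of same-numbered wild-type libraries correlated at 0.205 across genes. With 2 pairs and no label on pairing, the numbers only name the samples. The difference between genotypes called 50 genes without the filter and 4 with DESeq2, and 0 in each other setting.

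The erythroid, granulocyte, megakaryocyte, B cell, mitosis, DNA replication, p53 and interferon list medians kept their sign in all 20 settings. In the fit to all 8 libraries and in the wild-type fit, leaving out 1 library at a time moved the log2 fold change of Ebf1 from -0.44 to 0.17 and from -0.48 to 0.13. For Cd3e the ranges were -0.18 to 0.69 and -0.23 to 0.65, for Cd4 -0.80 to 0.0456 and -0.85 to 0.00355, and for Prg2 -0.95 to 1.12 and -0.99 to 1.08. Depth limits genes under 0.27 CPM.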

Other observations

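Other gene classes of the wild-type comparison moved as follows, with calls from the wild-type fit and medians from the fit to all 8 libraries. Of 13068 protein-coding genes 451 were called higher and 374 lower, with a median of 0.08. Of 378 lincRNA genes 18 were higher and 17 lower, and of 524 processed pseudogenes 10 were higher and 5 lower. Of 30 sense-intronic genes 6 were higher and 1 lower (median 0.70), and of 258 genes that GENCODE marks as to be experimentally tested, 26 were higher and 5 lower (median 0.55). Lars2, the mitochondrial leucyl-tRNA synthetase, named after its values were seen, had 122 and 107 CPM at day 0 and 529 and 636 at day 7.

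Calls were spread over the autosomes. Chromosome 3 had 47 higher and 12 lower of 791 genes tested, and chromosomes 6 and 12, which carry the kappa and heavy chain loci, had 70 lower of 938 and 50 lower of 649.

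E2f2 and Ccne2, named above among the replication genes, had 279 and 244 CPM against 908 and 574, and 51 and 35.4 against 271 and 107. Of the 10 genes with the highest log2 fold change, Klf5 had 1.14 and 0.506 CPM at day 0 and 27.4 and 8.12 at day 7, Gmpr 3.6 and 6.96 against 79.3 and 21.5, and Nrip3 6.64 and 4.05 against 67.6 and 32.1. In all 3 the first day 7 library was over 2-fold above the second. Hspa1b had 0.791 and 1.39 against 7.93 and 10.6.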
